A study of Mus musculus with 12 samples.

Results

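The 9 genes described here are conventional dendritic cell (cDC) genes. Itgax, Flt3 and Zbtb46 mark cDCs as a whole, Xcr1, Clec9a and Batf3 mark the cDC1 subset, and Cd209a, Sirpa and Clec10a mark the cDC2 subset. The list was drawn up by name from these known roles, but with earlier results of these data known. All 9 were found by Entrez identifier among the 17523 genes of the table, and all 9 passed the filter on low values that left 15587 genes for testing. The levels come from RNA of sorted CD4+ T cells, so the genes of an antigen-presenting cell were followed here in libraries labelled as T cells.

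Conventional dendritic cells take up antigen, carry it to lymphoid tissue and present it to T cells. cDC1 cells are known for presenting captured antigen to CD8+ T cells and depend on the transcription factors IRF8 and BATF3, while cDC2 cells are known for presenting antigen to CD4+ T cells. Both arise from precursors in bone marrow that need the growth factor FLT3 ligand, and both are found in the spleen.

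The 12 libraries were made from splenic CD4+ T cells of naïve, that is unimmunized, Gr/fr mice of the C57BL/6 strain, sorted by flow cytometry. All 4 groups carried the same alleles. A Csf2 allele in these animals gives normal GM-CSF together with the recombinase iCre and blue fluorescent protein, and iCre switches on yellow fluorescent protein (YFP) from the Rosa26 locus for good. YFP+ cells had therefore expressed GM-CSF at some time, whatever they did when they were sorted, and YFP- cells had not recombined the locus. Naïve cells (CD62L+ and negative or low for CD44) and effector memory (TEM) cells (CD62L- and high for CD44) were each split by YFP, which gave YFP- naïve, YFP+ naïve, YFP- TEM and YFP+ TEM cells with 3 libraries each. iCre follows the Csf2 gene in every cell type, so YFP is not limited to T cells. The study's methods give an age of 2 to 3 months for the mice whose CD4+ T cells were sorted, while the sex of the animals used for RNA, and whether animals were pooled, are not given in the sources used here. The comparisons ask how cells with a history of GM-CSF expression differ from cells without one. P-values measure the spread between libraries, since the labels do not name the animals.

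Values are normalized counts, which are reads divided by a size factor for each library. Between 40974124 and 57822269 reads lay on genes, and the column names give 1 lane for all libraries. The sort was checked with Cd44, which had 2831 ± 382 normalized counts (SD, n = 3) in YFP- naïve and 22014 ± 363 in YFP- TEM cells, and with Cd4, which had from 36078 to 67471 in the 12 libraries. The library of YFP+ naïve replicate 2 stood apart from the other 5 naïve libraries. All 12 monocyte and macrophage markers, 8 of 9 B cell markers and 6 of 7 measured neutrophil markers were highest of the naïve libraries there, and the monocyte and macrophage sum was 8325 normalized counts against 393 to 1567 in the others. Results that rest on this library are given with and without it. Genes were called by limma where p, adjusted after Benjamini and Hochberg, was 0.05 or less, in a fit on log2 of the normalized count plus 1 over all 12 libraries, and every fold change below is on that scale, which understates changes of low genes. In RNA of a whole sorted population, fewer cells of a type and less RNA per cell cannot be told apart.

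On the GRCm38.p6 assembly, in RefSeq coordinates, the pan-cDC genes are Itgax (Entrez 16411, chromosome 7, 128129526 to 128150657), Flt3 (14255, chromosome 5, 147330741 to 147400489) and Zbtb46 (72147, chromosome 2, 181371009 to 181493262). The cDC1 genes are Xcr1 (23832, chromosome 9, 123852315 to 123862029), Clec9a (232414, chromosome 6, 129408862 to 129424764) and Batf3 (381319, chromosome 1, 191098414 to 191108943). The cDC2 genes are Cd209a (170786, chromosome 8, 3743395 to 3748984), Sirpa (19261, chromosome 2, 129591042 to 129632228) and Clec10a (17312, chromosome 11, 70166623 to 70170836). Zgpat, Lime1, Slc2a4rg-ps and Abhd16b overlap the bounds of Zbtb46, and whether the counting used the strand is not given in the sources used here. Cd209a, Sirpa and Clec10a have close relatives (the other Cd209 genes, the Sirpb1 genes and Mgl2), so their counts are uncertain to the extent that reads are shared.

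RefSeq promoter sequences, from 250 bases before to 50 after a start of the gene, were at hand for 7 of the 9 genes. They were read for letters that factors of the dendritic cell lineage are known to bind. The AP-1 motif (TGANTCA, both strands), bound by BATF3 with JUN proteins, was in 7.81% of 32851 promoters. The PU.1 motif (GAGGAAGT, both strands) was in 3.20%, a short form of the ETS-IRF composite motif (GGAANNGAA, both strands) in 8.24%, a short form of the interferon-stimulated response motif (GAAANNGAA, both strands, which can overlap the composite motif) in 8.56% and the TATA box (TATAAA, gene strand) in 8.32%. Itgax and Zbtb46 each held 1 AP-1 match, first base at -56 and -61 from the start. For Zbtb46 that start lies inside the bounds of the gene, not at its outer end. Cd209a held 2 composite matches, at -152 on the gene strand and at -8 on the opposite strand, and Clec9a held 1 response motif on the opposite strand at -2. Flt3, Xcr1 and Batf3 held none of these letters. Printed here are the 4 promoters with a match, with the matches in capitals, and that of Xcr1, the member whose level did not follow the others in TEM cells. All are on GRCm38.p6 and run 5′ to 3′ on the strand of the gene.

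Itgax (chr7:128129300-128129599, plus strand): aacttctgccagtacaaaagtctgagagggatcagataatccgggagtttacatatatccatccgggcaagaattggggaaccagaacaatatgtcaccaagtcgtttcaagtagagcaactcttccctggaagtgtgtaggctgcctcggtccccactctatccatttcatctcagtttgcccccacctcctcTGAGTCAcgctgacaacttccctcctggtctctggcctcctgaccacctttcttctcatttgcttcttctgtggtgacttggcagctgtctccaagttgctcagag
Zbtb46 (chr2:181424339-181424638, minus strand): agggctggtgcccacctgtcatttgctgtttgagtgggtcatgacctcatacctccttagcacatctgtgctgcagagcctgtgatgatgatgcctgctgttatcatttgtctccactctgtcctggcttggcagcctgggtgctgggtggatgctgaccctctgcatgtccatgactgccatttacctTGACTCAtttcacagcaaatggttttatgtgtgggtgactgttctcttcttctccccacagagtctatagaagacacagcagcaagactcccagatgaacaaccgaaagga
Cd209a (chr8:3748935-3749234, minus strand): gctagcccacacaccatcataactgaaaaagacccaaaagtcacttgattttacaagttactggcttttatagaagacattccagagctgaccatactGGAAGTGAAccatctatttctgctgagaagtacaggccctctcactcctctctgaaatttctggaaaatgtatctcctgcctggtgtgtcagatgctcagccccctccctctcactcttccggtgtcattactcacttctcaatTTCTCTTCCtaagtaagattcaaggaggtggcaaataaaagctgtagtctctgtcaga
Xcr1 (chr9:123861980-123862279, minus strand): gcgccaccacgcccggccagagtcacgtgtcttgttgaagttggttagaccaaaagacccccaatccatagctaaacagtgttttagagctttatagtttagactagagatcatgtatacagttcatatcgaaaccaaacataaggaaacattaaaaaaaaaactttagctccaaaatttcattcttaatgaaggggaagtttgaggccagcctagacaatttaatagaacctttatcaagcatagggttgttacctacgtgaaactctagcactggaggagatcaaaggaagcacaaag
Clec9a (chr6:129408612-129408911, plus strand): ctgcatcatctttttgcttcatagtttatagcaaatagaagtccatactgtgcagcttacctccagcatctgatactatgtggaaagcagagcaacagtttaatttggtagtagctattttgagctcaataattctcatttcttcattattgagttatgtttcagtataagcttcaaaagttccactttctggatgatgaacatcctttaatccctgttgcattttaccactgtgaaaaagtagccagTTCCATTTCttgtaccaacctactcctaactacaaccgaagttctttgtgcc

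The Zbtb46 window lies within the outer bounds of that gene, away from its outer start, which is 181493262 on the minus strand. Whether the inner start is used in these cells was not tested. A match says only that the letters are there.

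In TEM cells, 8 of the 9 cDC genes were lower in YFP+ than in YFP- cells, and Xcr1 was the one that was not called. All 3 pan-cDC genes, all 3 cDC2 genes and 2 of 3 cDC1 genes fell. Of all tested genes, 4.67% were called lower in this comparison and 2.30% higher. The median log2 fold change of the 9 genes was -4.15, against -0.01 over all tested genes. The 8 genes were also those whose 3 YFP+ libraries all lay below the 3 YFP- libraries, which held for 14.3% of all tested genes.

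**Figure D1:**
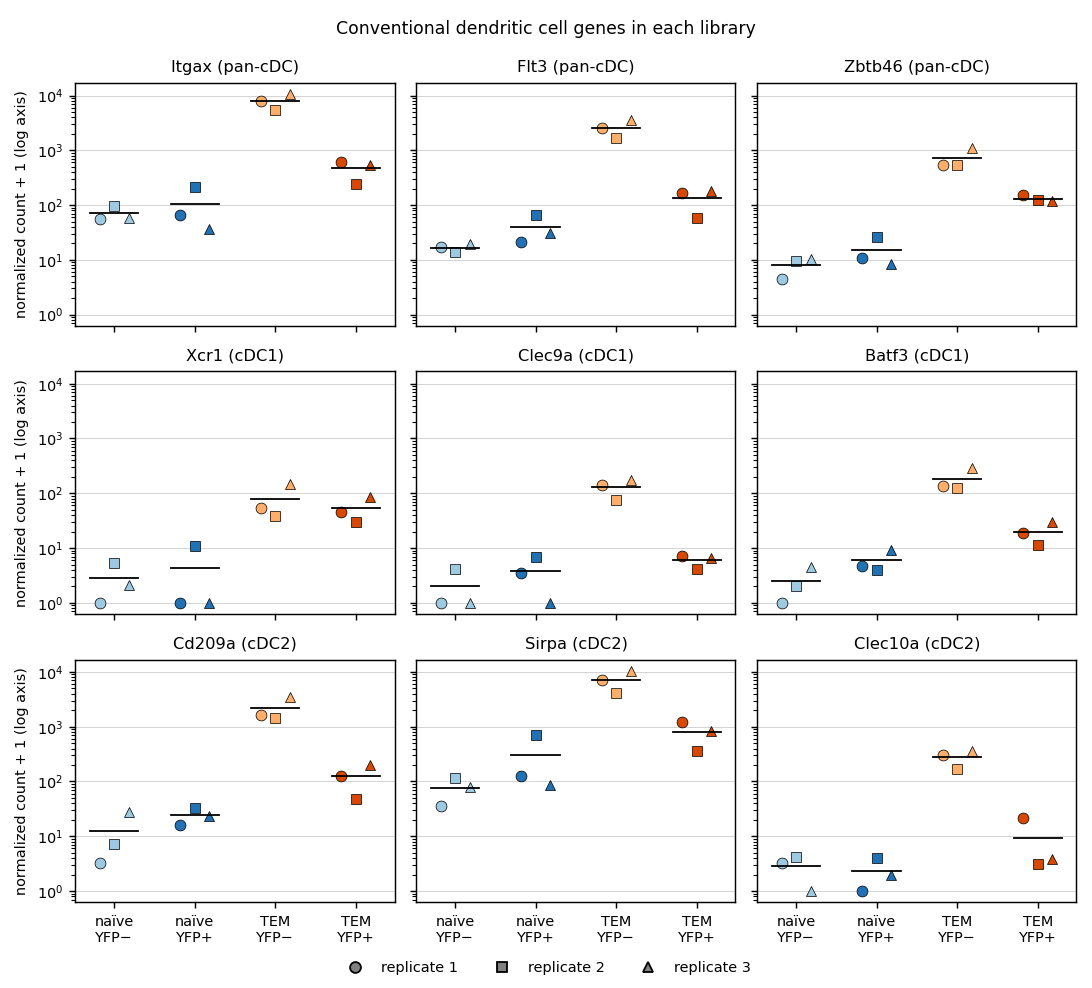
Normalized count plus 1 (log axis) of the 9 genes in each of the 12 libraries, by group; symbols give the replicate number and horizontal lines the group mean (n = 3). In 8 panels the YFP+ TEM libraries lie below every YFP- TEM library, while in the Xcr1 panel 29.0 to 84.6 normalized counts overlap with 37.1 to 146.

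Itgax encodes CD11c, the integrin chain by which dendritic cells are most often recognised. It had 7956, 5454 and 10593 normalized counts in YFP- TEM replicates 1, 2 and 3, and 607, 245 and 543 in the YFP+ TEM replicates. The naïve libraries had 54.1, 95.5 and 57.6 in YFP- and 64.3, 212 and 35.3 in YFP+ cells. The groups of TEM cells did not overlap, and the highest naïve library, YFP+ replicate 2, stayed below the lowest YFP+ TEM library. The log2 fold change in TEM cells was -4.15 (SE 0.54, adjusted p = 6.7e-04), and the YFP+ mean was 5.81% of the YFP- mean.

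Flt3, the receptor tyrosine kinase for FLT3 ligand, had 2573, 1660 and 3548 normalized counts in YFP- TEM replicates 1, 2 and 3, and 167, 55.9 and 182 in YFP+ TEM replicates. Naïve YFP- libraries had 16.1, 12.7 and 18.4, and naïve YFP+ libraries had 19.8, 65.9 and 29.8. YFP+ TEM replicate 2 was thus below YFP+ naïve replicate 2, so these groups overlapped, whereas the TEM groups did not. Flt3 fell by 4.36 (SE 0.50, adjusted p = 3.1e-04) on the log2 scale in YFP+ TEM cells.

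Zbtb46, a transcription factor that within the myeloid lineages is largely restricted to cDCs and their precursors, had 541, 528 and 1121 normalized counts in YFP- TEM replicates, and 151, 122 and 116 in YFP+ TEM replicates. Its naïve libraries had 3.46, 8.49 and 9.22 in YFP- and 9.89, 24.6 and 7.44 in YFP+ cells. No library of 1 TEM group reached the range of the other, or of the naïve cells. The log2 fold change was -2.40 (SE 0.47, adjusted p = 0.0075), the smallest in size of the 8 called, with the YFP+ mean at 17.8% of the YFP- mean. Zgpat and Lime1, which overlap its bounds, had log2 fold changes of 0.07 each and were not called.

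Xcr1, the receptor for the chemokine XCL1 and the surface marker that sets cDC1 cells apart, was the exception. It had 52.5, 37.1 and 146 normalized counts in YFP- TEM replicates 1, 2 and 3, and 44.5, 29.0 and 84.6 in YFP+ TEM replicates. Its naïve libraries had 0, 4.24 and 1.15 in YFP- and 0, 9.84 and 0 in YFP+ cells. The TEM groups overlapped and each lay above every naïve library. The log2 fold change between them was -0.45 (SE 0.94, adjusted p = 0.91), with a 95% interval from -2.50 to 1.60, so that a fall as large as that of Zbtb46 lies inside the interval and those of the other 7 genes do not. Without YFP- TEM replicate 3, its highest library, the log2 fold change was 0.12.

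Clec9a, a lectin receptor by which cDC1 cells sense the exposed actin of dead cells, had 143, 73.4 and 176 normalized counts in YFP- TEM replicates, and 6.07, 3.11 and 5.70 in YFP+ TEM replicates. The naïve libraries had 0, 3.18 and 0 in YFP- and 2.47, 5.90 and 0 in YFP+ cells. The YFP+ TEM libraries overlapped with the YFP+ naïve libraries and were far from the YFP- TEM ones. Clec9a fell by 4.42 (SE 0.77, adjusted p = 0.0033) on the log2 scale, and the YFP+ mean was 3.79% of the YFP- mean. With 0.1 in place of 1 added before the log2, the adjusted p was 0.14.

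Batf3, the AP-1 family transcription factor needed for cDC1 development, had 135, 124 and 287 normalized counts in YFP- TEM replicates, and 18.2, 10.4 and 28.5 in YFP+ TEM replicates. The naïve libraries had 0, 1.06 and 3.46 in YFP- and 3.71, 2.95 and 8.37 in YFP+ cells. The YFP- TEM libraries were highest, the YFP+ TEM libraries lay below all of them and above all naïve libraries. The log2 fold change in TEM cells was -3.19 (SE 0.62, adjusted p = 0.0070), and with 0.1 added before the log2 the adjusted p was 0.12. Activated T cells are known to express Batf3 as well.

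Cd209a, a lectin related to human DC-SIGN, had 1610, 1453 and 3429 normalized counts in YFP- TEM replicates, and 127, 46.6 and 199 in YFP+ TEM replicates. The naïve libraries had 2.30, 6.37 and 26.5 in YFP- and 14.8, 32.5 and 22.3 in YFP+ cells. The 2 TEM groups did not overlap, and both lay above the naïve libraries. It fell by 4.23 (SE 0.71, adjusted p = 0.0027) on the log2 scale in YFP+ TEM cells.

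Sirpa, an inhibitory receptor for CD47 that cDC2 cells share with macrophages, had 7244, 4135 and 10458 normalized counts in YFP- TEM replicates, and 1201, 362 and 819 in YFP+ TEM replicates. The naïve libraries had 34.6, 112 and 78.3 in YFP- and 125, 704 and 83.7 in YFP+ cells. The TEM groups did not overlap, but YFP+ naïve replicate 2 was above YFP+ TEM replicate 2. The log2 fold change in TEM cells was -3.26 (SE 0.72, adjusted p = 0.014). The adjusted p was 0.055 without YFP- TEM replicate 1, 0.076 without YFP- TEM replicate 3 and 0.056 without YFP+ TEM replicate 2.

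Clec10a, a lectin for galactose-type sugars, had 308, 166 and 359 normalized counts in YFP- TEM replicates, and 20.2, 2.07 and 2.85 in YFP+ TEM replicates. The naïve libraries had 2.30, 3.18 and 0 in YFP- and 0, 2.95 and 0.930 in YFP+ cells. YFP+ TEM replicate 1 held most of what was left in YFP+ TEM cells, and the other two lay among the naïve libraries. Without the YFP- TEM libraries the gene would not have passed the filter on low values. Clec10a fell by 5.39 (SE 0.82, adjusted p = 0.0015) on the log2 scale, the largest fall of the 9 genes, to 3.02% of the YFP- mean.

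Fold changes of the called genes in TEM cells ranged from -4.36 to -2.40 for the pan-cDC genes, from -4.42 to -3.19 for the cDC1 genes other than Xcr1 and from -5.39 to -3.26 for the cDC2 genes, and these ranges overlapped. The replicates differed in step. In YFP- TEM cells all 9 genes were highest in replicate 3 and lowest in replicate 2, with sums of the 9 of 20563, 13630 and 30116 normalized counts in replicates 1, 2 and 3. In YFP+ TEM cells 8 of 9 were lowest in replicate 2, all but Zbtb46, with sums of 2342, 877 and 1980. Without YFP- TEM replicate 3, 6 of 9 genes were called, and Zbtb46 (adjusted p = 0.052) and Sirpa were lost.

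**Figure D2:**
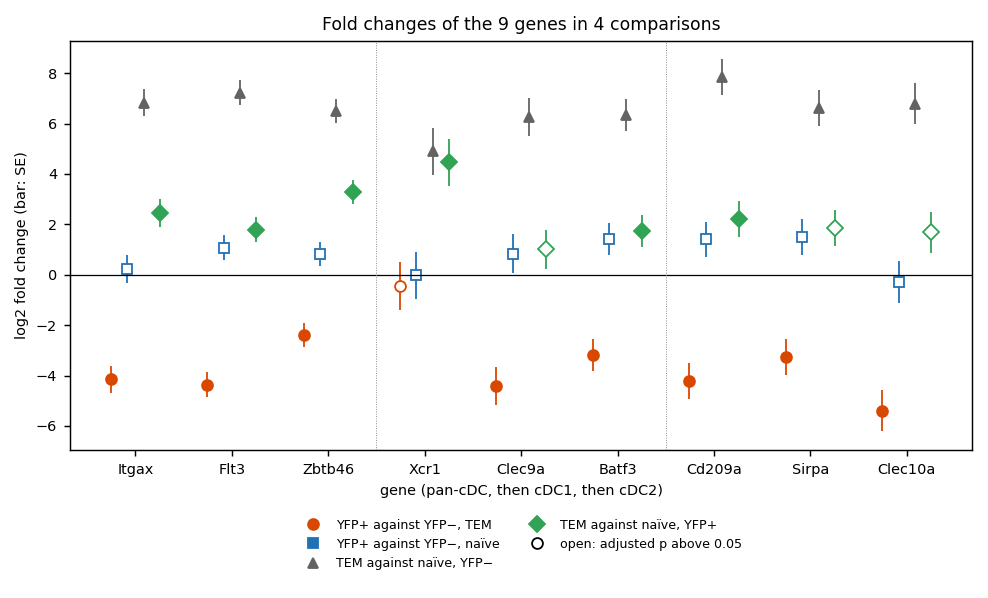
Log2 fold change (points) with SE (bars) of each gene in 4 comparisons, from the limma fit of 12 libraries; open symbols have an adjusted p above 0.05. YFP+ against YFP- TEM cells lie at -2.40 or lower for 8 genes and at -0.45 for Xcr1, while YFP+ against YFP- naïve cells lie between -0.29 and 1.52 with no gene called.

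Levels of different genes were compared per kilobase of exon (GENCODE M21). In YFP- TEM cells Itgax led with 1666 ± 535 normalized counts per kb (SD, n = 3), followed by Sirpa (1482 ± 644) and Cd209a (1367 ± 694), and these 3 overlapped. Flt3 followed at 420 ± 153, below all of these and above the rest. Batf3 (114 ± 57.1), Clec10a (95.8 ± 34.5) and Zbtb46 (85.7 ± 39.8) overlapped with their neighbours in the order. Clec9a (39.7 ± 15.9) was below Zbtb46 without overlap, and Xcr1 was lowest at 17.6 ± 13.2 but overlapped with Clec9a. Batf3 was thus the highest of the cDC1 genes by its mean and Xcr1 the lowest.

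In YFP+ TEM cells the order per kb was Sirpa (162 ± 85.5), Itgax (96.8 ± 40.1) and Cd209a (78.5 ± 48.1), which overlapped, then Flt3 (21.8 ± 11.1) without overlap with Cd209a. Zbtb46 (15.2), Batf3 (11.9), Xcr1 (11.8), Clec10a (2.89) and Clec9a (1.51) followed, each overlapping with the next. Xcr1 was last in YFP- TEM cells and was above Clec10a and Clec9a by its mean in YFP+ TEM cells.

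Xcr1 was therefore also read as a log2 ratio to each of the other 8 genes within a library, a measure chosen after its values were seen. Its ratio to Clec9a, the other surface receptor of cDC1 cells, was between -1.43 and -0.27 in YFP- TEM libraries and between 2.69 and 3.67 in YFP+ TEM libraries. The mean ratio was higher in YFP+ TEM cells for all 8 genes, by 1.95 for Zbtb46 up to 4.94 for Clec10a, with 2.74 for Batf3 and 3.97 for Clec9a, and the libraries of the groups overlapped for none of them. Since Xcr1 was picked for not following the others, these ratios are a description and carry no test.

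**Figure D3:**
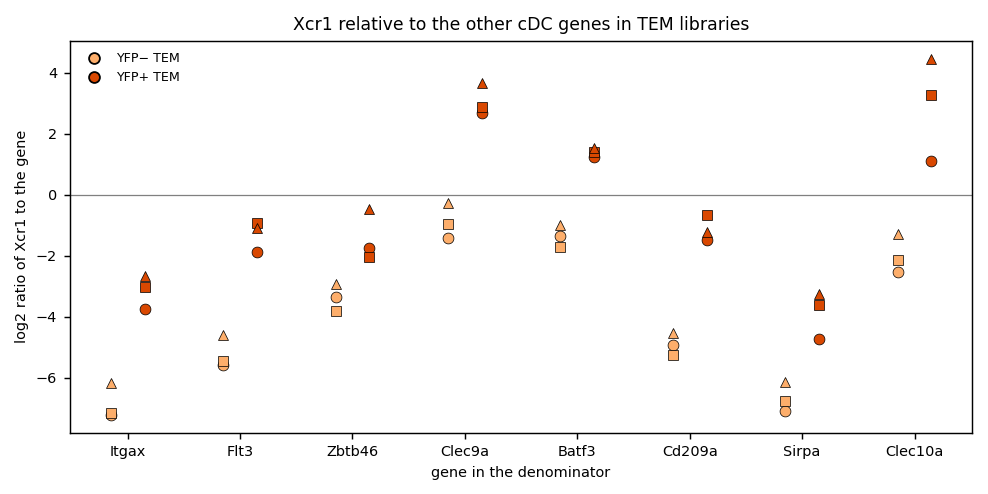
Log2 ratio of Xcr1 to each other gene (x axis) in the 3 YFP- and 3 YFP+ TEM libraries; circles, squares and triangles are replicates 1, 2 and 3. For every gene the YFP+ libraries lie above the YFP- libraries, from -0.89 to 3.08 on average for Clec9a.

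In naïve cells, none of the 9 genes was called between YFP+ and YFP- cells in limma. One gene, 0.00642% of those tested, was called in this comparison over all genes. edgeR and DESeq2 called 0 of the 9 as well, and at an unadjusted p under 0.05 limma gave 1 gene, Batf3 (1.42 on the log2 scale, SE 0.62, adjusted p = 1). Fitted fold changes were above 0 for 7 of 9 genes, with a median of 0.84, or 0.57 with Clec9a and Batf3, which were at the floor of 3 reads in YFP- naïve cells, taken against that floor. Clec9a in YFP+ naïve cells was below that floor value too and has no direction to read. Only for Flt3 did the libraries of the groups not overlap, against 5.38% of all tested genes. Naïve YFP+ replicate 2 was the highest of its group for 8 of the 9 genes, and the sum of the 9 was 1061 there against 113 to 247 in the other naïve libraries. The part of the monocyte, B cell and neutrophil markers of that library in these values was not tested. Without that library 0 of 9 genes were called, Sirpa moved from 1.52 to 0.59, and Itgax from 0.23 to -0.48. The others were then 1.67 for Batf3, 1.14 for Cd209a, 0.61 for Flt3, 0.34 for Zbtb46 and 0.21 for Clec9a. Xcr1, with reads in that library alone of its group, was then -1.17, and Clec10a -0.79. The 7 of 9 genes above 0 and the median of 0.84 thus include that library. Clec10a was at or under 3 reads in every library of both naïve groups, so its fitted fold change there has no direction to read.

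In YFP- cells, all 9 genes were higher in TEM than in naïve cells, with no overlap between the groups. Of all tested genes, 29.9% were called higher in this comparison, and 33.9% had TEM libraries all above the naïve libraries. The median log2 fold change of the 9 genes was 6.63, or 6.50 with the 3 genes at the floor of naïve cells taken at their bound, against 0.05 over all tested genes. Cd209a had the largest (7.84, SE 0.71, adjusted p = 1.9e-06), followed by Flt3 (7.22, SE 0.50, adjusted p = 2.1e-07), and Xcr1 had the smallest (4.90, SE 0.94, adjusted p = 8.8e-04). YFP- naïve cells held 3 reads or fewer in every library of Clec9a, Batf3 and Clec10a. Against that floor of 3 reads a library, averaged over the group, Clec9a was at least 38.9-fold, Batf3 at least 54.1-fold and Clec10a at least 82.5-fold higher in YFP- TEM cells.

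In YFP+ cells, 6 of 9 genes were called higher in TEM than in naïve cells, and 24.7% of all tested genes were. Fold changes were 4.47 for Xcr1 (SE 0.94, adjusted p = 0.0022), 3.29 for Zbtb46 (SE 0.47, adjusted p = 1.3e-04), 2.44 for Itgax (adjusted p = 0.0032), 2.21 for Cd209a (adjusted p = 0.025), 1.78 for Flt3 (adjusted p = 0.012) and 1.74 for Batf3 (adjusted p = 0.041). Sirpa (1.86, adjusted p = 0.055), Clec10a (1.68, adjusted p = 0.12) and Clec9a (1.01, adjusted p = 0.32) did not pass. In 5 genes the TEM libraries lay above all naïve libraries, against 27.4% of all tested genes. Without YFP+ naïve replicate 2, Sirpa passed (2.78, adjusted p = 0.0018) and Batf3 did not (1.48, adjusted p = 0.11). The count was 3 without YFP+ naïve replicate 1, YFP+ TEM replicate 1 or YFP+ TEM replicate 3, each time with the loss of Flt3, Batf3 and Cd209a. This comparison and the one in YFP- cells each share their TEM libraries with the comparison of YFP+ and YFP- TEM cells, so they are not independent of it.

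The effect of YFP status differed between TEM and naïve cells for 8 of 9 genes by the interaction term, all in the lower direction, in which 2.73% of all tested genes were called. Interaction terms of the called genes ranged from -5.63 for Cd209a (SE 1.01, adjusted p = 0.0096) to -3.22 for Zbtb46 (SE 0.67, adjusted p = 0.020). That of Xcr1 was -0.43 (SE 1.33, adjusted p = 0.99). Without YFP+ naïve replicate 2, 7 of 9 were called and Clec10a was lost (adjusted p = 0.063). The call of Clec10a was lost under 12 alternatives and kept under 11, and that of Clec9a was lost under 7 and kept under 16. The count was 5 without YFP- naïve replicate 1 or YFP- TEM replicate 1 and 4 without YFP- TEM replicate 3.

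Further genes of the dendritic cell lineages were read from lists. Beside the counts of these and the following lists, 4.67% of all tested genes were called lower and 2.30% higher in YFP+ TEM cells. Of 16 regulators of dendritic cell development, 3 fell and 1 rose in YFP+ TEM cells, with a list median of -0.19. Spi1, which encodes PU.1, fell from 2952 ± 977 to 243 ± 112 normalized counts (log2 fold change -3.66, SE 0.46). Cbfa2t3, a corepressor of myeloid progenitors, fell from 5119 ± 2220 to 508 ± 41.9 (-3.25, SE 0.36), and Irf8 fell from 5592 ± 1779 to 1493 ± 273 (-1.86, SE 0.32). Id2, an inhibitor of E proteins that cDC1 cells need and that effector T cells also express, rose from 12304 ± 579 to 24368 ± 5357 (0.96, SE 0.15).

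Among 8 further cDC2 genes, 4 fell and none rose, with a median of -3.24. The called genes were Clec4a2 (-4.09, SE 1.04), Clec4a4 (-3.83, SE 0.83), Mgl2 (-3.82, SE 0.74), the near relative of Clec10a, and Itgam (-3.55, SE 0.34), which encodes CD11b. Among 11 further cDC1 genes, 2 fell and none rose, with a median of -0.60. Wdfy4, needed by cDC1 cells to present captured antigen, fell from 14549 ± 3891 to 1102 ± 465 normalized counts (-3.78, SE 0.47), and Cd8a, which mouse splenic cDC1 cells share with CD8+ T cells, fell from 371 ± 183 to 44.6 ± 27.0 (-3.13, SE 0.64). Among 8 genes of mature dendritic cells 7 were tested, and 3 fell with a median of -1.46. Those were the chemokine gene Ccl22 (-2.89, SE 0.51), Il12b (-2.40, SE 0.53) and the actin-bundling gene Fscn1 (-2.12, SE 0.29).

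**Figure D4:**
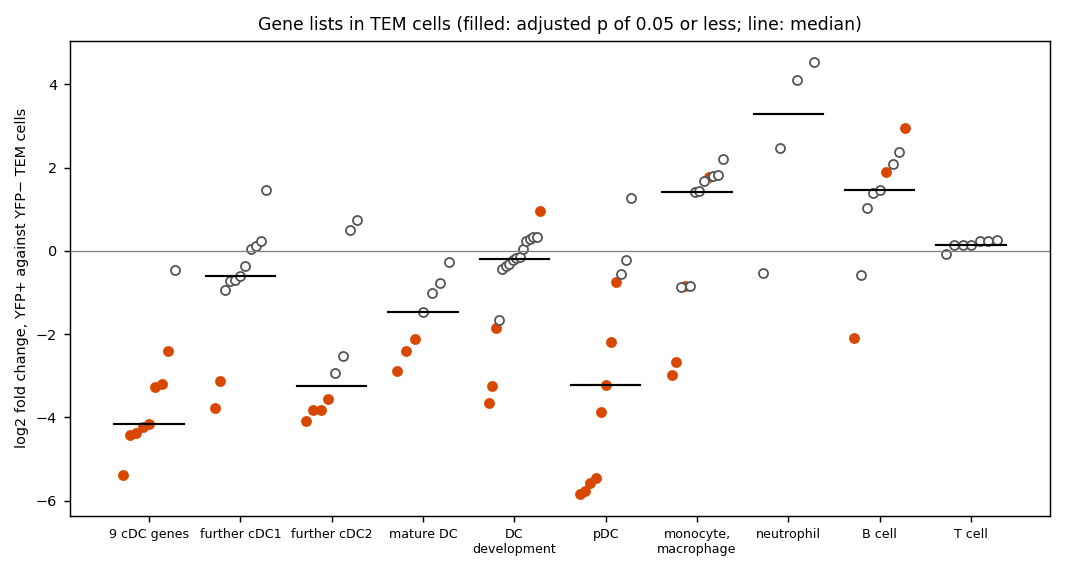
Log2 fold change of each gene, YFP+ against YFP- TEM cells, for the 9 cDC genes and 9 further lists; filled points have an adjusted p of 0.05 or less and lines are list medians. Medians lie at -4.15 for the cDC genes and -3.22 for plasmacytoid dendritic cell (pDC) markers, and at 0.15 for T cell markers.

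Lists of markers of other cells were read in TEM cells as well, where 4.67% of all tested genes were called lower and 2.30% higher. Only the list of plasmacytoid dendritic cell markers had most of its members called. Of its 11 markers, 8 fell and none rose, with a median of -3.22, and the sum over the list went from 16121 to 23195 normalized counts in YFP- to 11445 to 12119 in YFP+ TEM libraries. That sum is not a level of these cells alone, since it was already 8171 to 9204 in YFP- naïve libraries. Pacsin1, not called, had 6099 ± 588 in YFP- naïve and 4473 ± 1036 in YFP+ TEM cells. The largest falls were those of Cox6a2 (-5.84, SE 0.82), Smim5 (-5.78, SE 0.58), Klk1 (-5.57, SE 0.69) and Siglech (-5.45, SE 0.96), a surface lectin of these cells. The sum of these 4 was 2216 to 5116 in YFP- and 39.4 to 183 in YFP+ TEM libraries. Since the 4 were picked for their falls in this comparison, their sum is a description and carries no test. None of the 4 was at 0 in all libraries of a TEM group.

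Of 12 monocyte and macrophage markers, 3 fell and 1 rose, with a median of 1.42, and the sum over the list was 10156 to 15871 in YFP- and 8728 to 16486 in YFP+ TEM libraries. Adgre1, which encodes F4/80 (-2.99, SE 0.67), Cd68 (-2.67, SE 0.45) and Ly6c2 (-0.85, SE 0.18) fell and the chemokine receptor gene Ccr2, which effector T cells also express, rose (1.78, SE 0.49). Ccr2 had 1835 ± 107 normalized counts in YFP- and 6487 ± 1755 in YFP+ TEM cells. It is a large part of the list sums in YFP+ TEM libraries, which are thus not a level of monocytes and macrophages alone. The sum of C1qa, C1qb, C1qc and Cd14, picked from the list after values were seen, was 337 to 548 in YFP- and 866 to 2170 in YFP+ TEM libraries, none of them called. Of 9 B cell markers, 2 rose (Ebf1 2.94, SE 0.57, and Cd79a 1.91, SE 0.50) and 1 fell (Blnk -2.10, SE 0.52), with a median of 1.46 and list sums of 559 to 773 in YFP- and 398 to 1091 in YFP+ TEM libraries. Of 9 neutrophil markers 7 had values, only 4 passed the filter on low values and none was called, with list sums of 3.06 to 17.0 in YFP- and 33.1 to 149 in YFP+ TEM libraries, and Camp was at 0 in all YFP- TEM libraries. None of 7 T cell markers was called, with a median of 0.15 and sums of 203311 to 238376 and 225652 to 248372. The part of these other cells in the fall of the cDC genes was not tested.

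**Figure D5:**
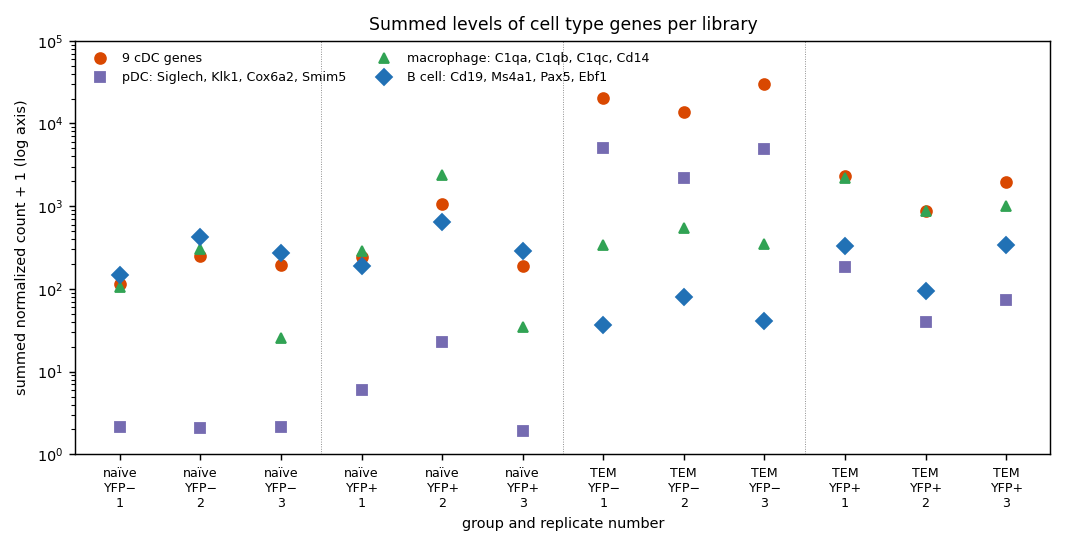
Summed normalized counts plus 1 (log axis) in each library of the 9 cDC genes and of genes of plasmacytoid dendritic cells, macrophages and B cells. In YFP+ TEM libraries the cDC sum (877 to 2342) lies below that of YFP- TEM libraries. The sum of 4 pDC genes (39.4 to 183) lies below too, but these were the 4 with the largest falls in this comparison. The whole list of 11 pDC markers had 11445 to 12119 in YFP+ against 16121 to 23195 in YFP- TEM libraries. It was already 8171 to 9204 in YFP- naïve libraries, so it is not a level of pDCs alone. The sum of 4 macrophage genes picked after values were seen (866 to 2170) lies above, and that of the whole list of 12 overlaps (8728 to 16486 against 10156 to 15871). The whole list includes Ccr2, which effector T cells also express, with 6487 ± 1755 in YFP+ and 1835 ± 107 in YFP- TEM cells.

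The genes with profiles most like those of the members over the 12 libraries were found by the root mean square difference of mean-centred log2 values. The nearest was Gpr141 for Itgax (0.23), Krt80 for Flt3 (0.32), Myadm for Zbtb46 (0.34), Tgfbi for Sirpa (0.31), Eps8 for Batf3 (0.53), Fgd2 for Clec9a (0.55), Rtn1 for Cd209a (0.59) and Slc16a14 for Clec10a (0.68). The second nearest to Sirpa was Adgre1 (0.33), a macrophage marker. Xcr1 was nearest to Ifitm2 (0.61) and was also near to Ccl4 (0.66), a chemokine gene of activated T cells and myeloid cells. The median difference from all tested genes was 2.46 to 3.08. The 12 libraries fall into 4 groups, so the likeness is over 4 conditions.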

How the data were processed

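RNA of 4 groups of 3 libraries was prepared with a stranded total RNA kit. Per the submitters' processing notes and the study's methods, reads were mapped to mm10 with DRAGEN, counted on genes with Rsubread and scaled with DESeq2. The annotation, strand setting and versions are not given in the sources used here. The deposited signal is normalized counts, the reads the authors divided by each library's size factor. Every value gave whole reads (100%, within 0.01 reads), so reads on genes are known: 40974124 to 57822269 per library, median 44929387. Symbols came from RefSeq for 16749 genes (774 had none), and lengths from GENCODE M21 for 15018.

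The 15587 genes that reached 5 normalized counts in 3 or more libraries were fitted as log2 (value plus 1) in limma 3.58.1 (R 4.3.3), as 4 group means with a variance trend and 8 residual degrees of freedom, and adjusted by Benjamini and Hochberg. Intervals are at 95%. The code was tested on simulated data. Alternatives were other prior counts, filters and scalings, the replicate number as a block, no trend, the compared libraries alone, edgeR 4.0.16 and DESeq2 1.42.0 on the recovered reads, and leaving out each library. Members and lists were chosen with earlier results of these data known. All members are named, with up to 4 called genes of largest change per list and up to 3 nearest profiles each. The genes summed for plasmacytoid dendritic cells, macrophages and B cells, the Xcr1 ratios and the neighbouring genes were chosen after values were seen. Beside the 12 monocyte and macrophage markers in the counts, 1 more had been listed and is not reported here.

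The replicate numbers in the labels were checked for pairing. After group means were removed, libraries of the same number correlated at 0.306, 0.491 and 0.360 between YFP- and YFP+ naïve cells and at 0.180, 0.338 and 0.356 between YFP- and YFP+ TEM cells, so the numbers were taken to pair these libraries. Libraries of the same number correlated at 0.168, 0.137 and 0.232 between YFP- naïve and YFP- TEM cells. Between YFP+ naïve and YFP+ TEM cells the values were 0.204, -0.02 and 0.056, so pairing was less clear there. The main fit did not use the replicate number, which entered only as a block in an alternative. The labels do not say what a number stands for.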

Additional observations from a re-analysis of the deposited data

Results flagged for a closer look

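For 8 of the 9 cDC genes the effect of YFP status (YFP+ against YFP-) differed between TEM and naïve cells, by the interaction term in limma at an adjusted p of 0.05 or less. On the log2 scale the effect in TEM cells minus that in naïve cells was -4.386 for Itgax, -5.438 for Flt3 and -3.215 for Zbtb46 among the pan-cDC genes, -5.256 for Clec9a and -4.607 for Batf3 among the cDC1 genes, and -5.631 for Cd209a, -4.776 for Sirpa and -5.106 for Clec10a among the cDC2 genes. Clec10a was at the floor of 3 reads in both naïve groups, so its term rests on the TEM libraries, and its call was lost under 12 alternatives and kept under 11 (adjusted p up to 0.35). That of Clec9a was lost under 7 and kept under 16 (adjusted p up to 0.22).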

How the results depend on the processing

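Counts of calls among the 9 genes stayed within 1.5 times of those reported, except where given here. In TEM against naïve YFP+ cells 3 genes were called in place of 6 after quantile normalization, and in the interaction 5 in place of 8 with a prior count of 0.1, where Clec9a, Batf3 and Clec10a were lost. Leaving out 1 library gave 6 to 8 calls in YFP+ against YFP- TEM cells, 0 in naïve cells, 9 in TEM against naïve YFP- cells, 3 to 7 in TEM against naïve YFP+ cells and 4 to 8 in the interaction. The fit with the replicate number as a block gave 8, 0, 9, 6 and 8 calls in these 5 comparisons and changed no call. Of 855 fold changes under an alternative, 786 kept their direction and side of the threshold, 49 were no longer called, 3 became called and 17 changed sign, of which all but Clec9a in TEM against naïve YFP+ cells were in Xcr1 or in naïve cells. Xcr1 in naïve cells was 0.13 with a prior count of 5, 0.82 in edgeR with and without the block and 0.87 in DESeq2, and from -1.17 to 0.59 without 1 library. The interaction term of Xcr1 was 0.36 with a prior count of 0.1, 0.21 after quantile normalization and -1.04 to 0.71 without 1 library, and its fold change in TEM cells -0.86 to 0.12. Without 1 library, naïve Itgax ranged from -0.48 to 0.80 and naïve Clec10a from -0.92 to 0.20. Clec9a in TEM against naïve YFP+ cells was -0.17 after quantile normalization. The cause was not tested. Quantile normalization moved the median of all tested genes from 0.05 to -0.20 (YFP-) and from 0.03 to -0.14 (YFP+) in TEM against naïve cells. With 3 libraries a group, p from exact permutation is 0.1 or more, so calls rest on the variance shared across genes. SEs were largest for Xcr1, Clec10a and Clec9a, which had few reads in naïve cells.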

Other observations

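Tested genes within 100 kb of each cDC gene were read in YFP+ against YFP- TEM cells, a window chosen after the values of Xcr1 were seen. A neighbour was called higher for Xcr1 alone, by 1 gene, and 2.30% of all tested genes were called higher in this comparison. Of the 3 neighbours of Xcr1, Cxcr6, a chemokine receptor gene 40561 bases away, rose from 1224 ± 56.4 normalized counts (SD, n = 3) in YFP- to 10923 ± 4250 in YFP+ TEM cells (log2 fold change 3.07, SE 0.35, adjusted p = 3.1e-04). Ccr9, 68858 bases away, had 975 ± 414 and 2442 ± 1201 (1.28, adjusted p = 0.096), and Fyco1, 416 bases away, had 2792 ± 343 and 2713 ± 202 (-0.04, adjusted p = 0.96). Cxcr6 lies within the bounds of Fyco1 on the opposite strand.

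Neighbours of the other genes were called lower or not at all, and 4.67% of all tested genes were called lower in this comparison. Around Itgax, 2 of 6 fell, Itgam (-3.55) and Cox6a2 (-5.84). Around Cd209a, 2 of 6 fell, Mcemp1 (-3.87) and Cd209e (-3.49), around Clec10a 1 of 7 (Mgl2, -3.82) and around Batf3 1 of 4 (Nsl1, -1.23). Cd209e, a relative of Cd209a, was low, with 11.0 ± 5.53 normalized counts in YFP- and 0 in YFP+ TEM cells. Cd209e, Cox6a2 and Mgl2 passed the filter on low values only through YFP- TEM libraries, so their falls carry little weight as results about neighbours. None of 2 around Flt3, 10 around Zbtb46 and 4 around Clec9a was called, and Sirpa had no other gene of the table in its window.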
